A study of Mus musculus with 5 samples.

Results

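Cadherins and protocadherins were followed in D4M.3A cells, a mouse melanoma line of C57BL/6 origin. The set holds every counted gene whose symbol is Cdh followed by a number or begins with Pcdh: 91 of 46959 genes, made up of 23 cadherins, 12 non-clustered protocadherins and 13, 22 and 21 entries of the Pcdha, Pcdhb and Pcdhg clusters. The study compared cells carrying the empty retroviral vector pBABE, its reference (2 libraries), with cells carrying constitutively active MNK (caMNK, 3 libraries). MNK kinases phosphorylate the cap-binding protein eIF4E. Both lines share the D4M.3A background and were used at passages 7 to 12. The extraction protocol names the kinase as MNK1, while the species of its cDNA is not labelled, nor whether each line is 1 clone. Each arm is 1 line, so the kinase and anything else in which the lines differ cannot be told apart.

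Classical cadherins hold cells together in adherens junctions. Their outer repeats bind calcium and the same cadherin on the next cell, and their tails bind beta-catenin and p120-catenin, which lead to actin. Melanocytes are known to hold to keratinocytes through E-cadherin (Cdh1), and many melanomas carry N-cadherin (Cdh2) in its place. Protocadherins lack the catenin-binding tail. Most have their own gene, but the clustered ones lie in a row on chromosome 18. In the alpha and gamma clusters each variable first exon has its own promoter and is spliced to shared constant exons, while each beta gene is a single exon.

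Total counts were 27827199 to 48794336 per library. Mknk1, the mouse gene of MNK1, was read as a check of the labels and measured 15.2 and 16.7 CPM (read counts scaled to the size of the library) in pBABE and 167, 155 and 168 CPM in caMNK (log2 fold change 3.36, SE 0.104). Pigment cell markers were mostly missing from both lines. Dct and Tyrp1 had no count in any library, Mitf measured 4.35 to 6.48 CPM, and the other 6 of 9 markers stayed under 1 CPM. Of 17026 genes abundant enough to test, 1352 (7.94%) passed edgeR's quasi-likelihood test at an adjusted p under 0.05. Of them 753 (4.42%) rose and 599 (3.52%) fell in caMNK, or 999 and 465 with total-count scaling. The groups did not overlap in 7638 genes (44.9%). The calls changed with the libraries used. Leaving out caMNK replicate 1 gave 255 called genes and leaving out caMNK replicate 2 gave 4942 (29.6%). A fit without either pBABE library keeps only 1 of that group. Calls lost in such a fit cannot be told apart from the effect of fewer libraries. The libraries are described as biological replicates without word on separate cultures, so p-values cover only the spread between these 5 libraries.

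Of the 35 cadherins and non-clustered protocadherins, 17 were abundant enough to test: Cdh17 and Pcdh17 rose, Cdh5 fell, and the other 14 did not pass. The 3 calls among 17 stand beside the 7.94% called over all genes, and the median log2 fold change was 0.11 against −0.00 over all genes tested. The groups did not overlap in 8 of the 17, against 44.9% of all genes. The 3 called genes were at most at 11.6 CPM in any library. The cadherins and protocadherins with the most reads, Cdh2 and Pcdh7, were among those that did not pass. Counts cover whole gene bodies, introns included, so levels of different genes are given per kb of gene body or of exon. Whether strand was used in counting was not given. In bulk RNA, fewer cells that carry a gene and less of its RNA per cell cannot be told apart.

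**Figure D1:**
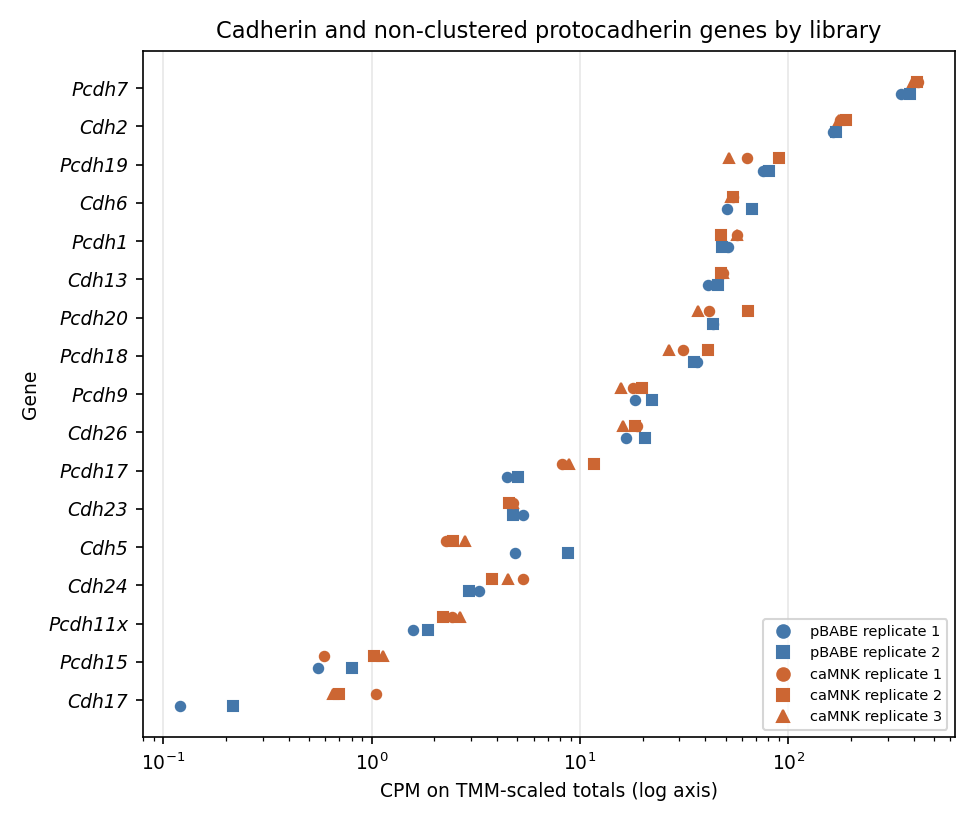
CPM on TMM-scaled library totals (log axis) of the 17 tested cadherin and non-clustered protocadherin genes, 1 point per library, blue for pBABE (n = 2) and orange for caMNK (n = 3). The groups part clearly for Cdh17, Cdh5 and Pcdh17, and caMNK replicate 2 (square) lies highest for Pcdh18, Pcdh19 and Pcdh20. CPM are not corrected for gene length, so heights of different genes are not comparable.

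N-cadherin was the classical type I cadherin of these cells. Cdh2 (chromosome 18, 16588877 to 16809246, minus strand) measured 164 and 170 CPM in pBABE and 178, 190 and 175 CPM in caMNK. All caMNK libraries were higher than both pBABE libraries, but the log2 fold change of 0.11 (SE 0.0840) was not past the threshold (edgeR adjusted p = 0.435). E-cadherin, encoded by Cdh1, had 6 and 5 counts in pBABE and 3, 7 and 4 in caMNK, too few to test. P-cadherin (Cdh3) had 2 and 1 counts in pBABE and 2, 0 and 0 in caMNK. R-cadherin (Cdh4) had 4 counts over all libraries. M-cadherin, the muscle cadherin Cdh15, had 1 count in each pBABE library and 1, 7 and 5 in caMNK. At these depths 3 counts in a library correspond to 0.0617 to 0.105 CPM. Cdh3 and Cdh4 never passed that limit, and Cdh1 and Cdh15 reached at most 7 counts. The epithelial marker list was low too, at a sum of 3.958 to 3.997 CPM in pBABE and 5.23 to 5.57 in caMNK over 10 genes. Krt10 gave most of it, Krt1 and Cldn4 had no count, and 9 of the 10 stayed under 1 CPM.

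Among type II cadherins, VE-cadherin fell and K-cadherin did not pass. Cdh5 (chromosome 8, 104101625 to 104144511, plus strand) encodes VE-cadherin, the junction protein of blood vessel lining, which has also been described in melanoma cells. It measured 4.89 and 8.80 CPM in pBABE and 2.27, 2.47 and 2.81 CPM in caMNK. The groups did not overlap, and the pBABE libraries lay far apart from each other. The fall was 2.69-fold (log2 fold change −1.43, SE 0.247, edgeR adjusted p = 0.0141). Without pBABE replicate 2, which leaves 1 library in that group, the log2 fold change was −0.96. Without caMNK replicate 1 it was −1.37 and no longer past the threshold (edgeR adjusted p = 0.0661). That fit called 255 of 16861 genes. The sum of the endothelial markers was higher in caMNK: the 7 genes summed to 0.624 and 0.713 CPM in pBABE and 0.919 to 1.78 CPM in caMNK, all 7 stayed under 1 CPM in every library, and Tie1 had no count. CPM of Cdh5 and of these markers are not corrected for gene length, so their heights are not compared.

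Cdh6 (K-cadherin, of kidney and neural crest) measured 50.8 and 67.0 CPM in pBABE and 54.4, 53.9 and 52.9 CPM in caMNK. The caMNK values lay between the 2 pBABE values (log2 fold change −0.13, edgeR adjusted p = 0.537). Cdh24, a less studied type II cadherin, measured 3.29 and 2.94 CPM in pBABE and 5.33, 3.76 and 4.51 CPM in caMNK. Its span may share reads with Gm17606, which overlaps it on the other strand. Its groups did not overlap, and its log2 fold change of 0.53 (SE 0.189) missed the threshold with all libraries (edgeR adjusted p = 0.123) and passed without caMNK replicate 2 (0.00766). The other 10 type II genes were not tested. Cdh11, the mesenchymal OB-cadherin, had 15 and 4 counts in pBABE and 3, 12 and 3 in caMNK, and Cdh18 had 13 and 7 against 2, 12 and 5, so in both genes the groups overlapped. Cdh7, Cdh8, Cdh10, Cdh12, Cdh19, Cdh20 and Cdh22 had 1 to 9 counts over all 5 libraries, and Cdh9 had none.

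The cadherins outside the classical types have short or unlike tails, and 1 of the 4 tested rose. Cdh17, the LI-cadherin of intestinal lining (chromosome 4, 11758147 to 11817895, plus strand), had 5 and 7 counts in pBABE and 30, 34 and 24 in caMNK. These are 0.120 and 0.217 CPM against 1.05, 0.699 and 0.649 CPM. Every caMNK library was higher, but all 5 levels were low. The rise was 4.72-fold (log2 fold change 2.24, SE 0.432, edgeR adjusted p = 0.0200). With 1 pBABE library left, the log2 fold change was 1.83 (without replicate 1) or 2.67 (without replicate 2). Without caMNK replicate 1 it was 2.03 and missed the threshold (edgeR adjusted p = 0.0670). In that fit 255 of 16861 genes were called, and Cdh17 was not among them. Under the stricter filter on low counts it was not tested.

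Cdh13, which encodes T-cadherin, held to the membrane by a lipid anchor, measured 41.0 and 45.9 CPM in pBABE and 48.3, 47.7 and 48.3 CPM in caMNK (log2 fold change 0.15, edgeR adjusted p = 0.339). The groups did not overlap, but they lay close together. Cdh26 measured 16.6 and 20.6 against 18.7, 18.3 and 16.1 CPM (adjusted p = 0.786 by edgeR). Cdh23, a part of the tip link of inner ear hair cells, measured 5.35 and 4.74 against 4.78, 4.55 and 4.78 CPM (0.683). In both genes the groups overlapped. The kidney cadherin Cdh16 had 1 count in all.

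Among the 9 tested non-clustered protocadherins 1 rose. Pcdh17 is a delta-2 protocadherin whose tail binds a complex that regulates actin. Its span is chromosome 14, 84443563 to 84539002 (plus strand). It is the one called non-clustered gene with a promoter in the RefSeq table used here (GRCm38.p6), so the 250 bases before its start are shown, from chr14:84443313-84443562 on the plus strand, 5′ to 3′. Capitals mark 2 matches to the CCAAT box, read on this strand as ATTGG, which begin at bases 150 and 193.
Pcdh17 promoter: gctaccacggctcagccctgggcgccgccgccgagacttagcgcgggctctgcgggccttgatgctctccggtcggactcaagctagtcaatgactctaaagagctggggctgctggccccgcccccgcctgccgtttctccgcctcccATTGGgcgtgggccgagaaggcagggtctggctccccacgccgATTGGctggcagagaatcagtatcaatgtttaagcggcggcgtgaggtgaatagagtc
Searched on both strands over windows of 300 bases (250 before to 50 after a start), CCAAT was present in 37.4% of 32851 promoters in the table. It was present in 17 of the 25 promoter windows of members with genes away from the clustered loci's chromosome. These windows belong to 22 of 32 such members. Some members have several windows, and those of Pcdh9 cover nearly the same bases, so a match there can count more than once. The E-box CACCTG, bound by Snail and ZEB repressors, was in 20.2% of all windows and 5 of the 25. Those windows belong to Pcdh7, Pcdh15 and Cdh7 only, and Cdh7 had it in each of its several windows. The AP-1 site TGANTCA was in 7.81% of all windows and in none of the 25. The 3 motifs do not share letters in a way that makes one contain another, and a match describes the letters only.

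Pcdh17 measured 4.46 and 5.05 CPM in pBABE and 8.16, 11.6 and 8.84 CPM in caMNK. All caMNK libraries were higher than both pBABE libraries. The rise was 2.02-fold (log2 fold change 1.02, SE 0.182, edgeR adjusted p = 0.0155). With 1 pBABE library left, the log2 fold change was 0.91 (without replicate 1) or 1.10 (without replicate 2).

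The other delta-2 genes with reads were highest in 1 caMNK library. Pcdh19, in which variants cause an epilepsy, measured 75.3 and 81.1 CPM in pBABE and 63.0, 90.2 and 51.7 CPM in caMNK. Pcdh18 measured 36.6 and 35.2 against 31.4, 41.1 and 26.8 CPM. In both genes caMNK replicate 2 lay above and the other 2 caMNK libraries below both pBABE libraries, and neither gene passed (edgeR adjusted p = 0.590 and 0.706). Without caMNK replicate 2 the log2 fold changes were −0.45 for Pcdh19 (adjusted p = 0.00139) and −0.31 for Pcdh18 (0.0145). Pcdh20 had the same outlying library, at 43.6 and 43.3 CPM in pBABE and 41.7, 63.9 and 37.0 CPM in caMNK. Its log2 fold change of 0.13 became −0.15 without that library, and it did not pass either way. Pcdh8 had 3 counts in all and Pcdh10 none.

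The delta-1 genes did not pass. Pcdh7 measured 346 and 384 CPM in pBABE and 418, 414 and 397 CPM in caMNK, the most reads of any member outside the clusters. It may share reads with 4932441J04Rik, which overlaps it on the other strand. The groups did not overlap, at a log2 fold change of 0.17 (SE 0.0870, edgeR adjusted p = 0.265). Pcdh1, of airway lining, measured 51.2 and 48.1 against 56.4, 47.7 and 56.5 CPM. Pcdh9 measured 18.4 and 22.1 against 17.95, 19.7 and 15.7 CPM. The groups of Pcdh1 and Pcdh9 overlapped. Pcdh11x, on the X chromosome, measured 1.58 and 1.86 against 2.44, 2.20 and 2.65 CPM without overlap (log2 fold change 0.50, edgeR adjusted p = 0.149), and passed without caMNK replicate 2 (0.0489). Without that library 3 cadherins and 4 non-clustered protocadherins were called, against 29.6% of all genes. Pcdh15, the other part of the hair cell tip link, measured 0.552 and 0.806 against 0.593, 1.03 and 1.14 CPM with overlap. It may share reads with Gm15398 on the other strand and Gm5778 on the same strand. Pcdh12 had 1 count.

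**Figure D2:**
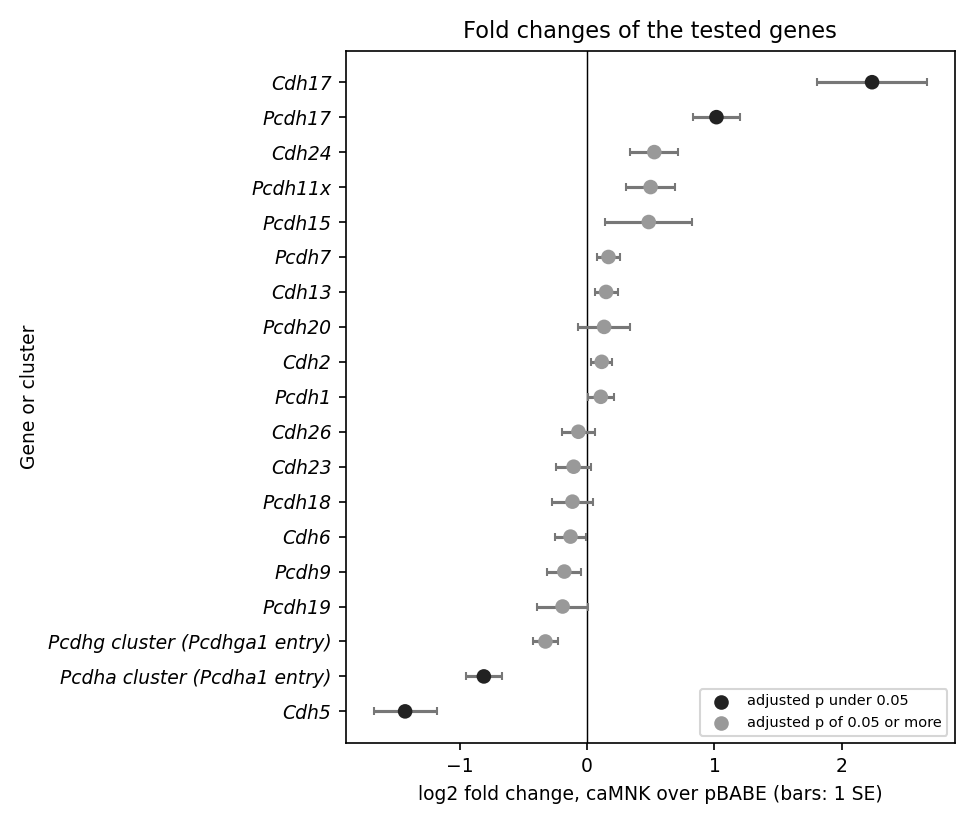
Log2 fold change of caMNK over pBABE with 1 SE for the 17 tested cadherins and non-clustered protocadherins and for the outermost entry of the Pcdha and Pcdhg clusters. Dark points passed an adjusted p of 0.05 in edgeR: Cdh17 (2.24), Pcdh17 (1.02), Pcdha1 (−0.81) and Cdh5 (−1.43).

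Per kb of gene body, the mean of the pBABE and caMNK group means was highest for Pcdh20, at 6.84 CPM per kb. Next came Pcdh18 at 2.46, Pcdh1 at 1.97, Pcdh7 at 0.933, Cdh2 at 0.790 and Pcdh19 at 0.690. Pcdh20 lay apart from Pcdh18 in every library, and Pcdh1 apart from Pcdh7, while the library ranges of Pcdh18 and Pcdh1, of Pcdh7 and Cdh2 and of Cdh2 and Pcdh19 overlapped. Per kb of merged exons the order was different, with Pcdh7 at 36.5 and Cdh2 at 21.6 CPM per kb ahead of Pcdh20 at 8.29. Pcdh7 and Cdh2 have long introns and Pcdh20 a compact gene, and gene body counts hold the reads of both kinds. On both scales Cdh17, Pcdh11x and Pcdh15 were the lowest 3 of the 17.

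The Pcdha cluster fell as a single signal. It spans chromosome 18 from 36930184 to 37187661 and holds 13 entries, each running from its own first exon to nearly the same end, so every entry contains those downstream of it and counts their reads again. All 13 entries fell, with log2 fold changes of −0.82 to −0.81 and edgeR adjusted p-values of 0.0141 to 0.0150. They are not 13 results: 1944 of the 1956 counts of the whole cluster (99.4%) lay in the innermost entry, Pcdhac2, whose 44155 bp hold its own variable exon and the constant exons. Reads spliced from an upstream exon to the constant exons would be counted there too. Reads that touched an entry upstream of Pcdhac2 and not Pcdhac2 itself came to 12 counts over 5 libraries, too few to test.

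Pcdhac2, the most downstream alpha isoform, measured 14.1 and 13.7 CPM in pBABE and 7.25, 9.28 and 6.95 CPM in caMNK. Every caMNK library was lower than both pBABE libraries. The fall was 1.76-fold (log2 fold change −0.82, SE 0.145, edgeR adjusted p = 0.0150). With 1 pBABE library left, the log2 fold change of Pcdhac2 was −0.81 (without replicate 1) or −0.84 (without replicate 2). Over the 13 entries the calls were lost without caMNK replicate 1 (edgeR adjusted p of 0.0714 to 0.0723). That fit called 255 of 16861 genes. The antisense gene Gm10544 lies inside the Pcdhac2 span, and its count was 10.1% and 7.92% of the Pcdhac2 count in pBABE and 20.2%, 18.6% and 17.5% in caMNK. If strand was not used in counting, the Gm10544 reads are also in the Pcdhac2 count. With these counts taken off, 12.6 and 12.6 CPM remained in pBABE and 5.79, 7.55 and 5.73 CPM in caMNK, without overlap. If strand was used, that subtraction does not apply.

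The Pcdhb genes, single exons between the other clusters (chromosome 18, 37264938 to 37524479), had mostly negative fold changes and no call. Of 22 genes 10 were tested, and 0 passed by edgeR, DESeq2 or limma-voom, which called 7.94%, 10.3% and 7.39% of all genes. At an unadjusted edgeR p under 0.05 there were 2 of the 10, beside 4407 of all 17026 genes tested. The median log2 fold change was −0.35 and 8 of 10 values were negative. Pcdhb22 had the most reads, at 8.01 and 6.41 CPM in pBABE and 5.02, 6.03 and 5.78 CPM in caMNK (log2 fold change −0.36, edgeR adjusted p = 0.179). Pcdhb16 measured 2.16 and 3.13 against 1.64, 1.89 and 1.27 CPM (−0.70, adjusted p = 0.113), the lowest adjusted p of the 10. In both genes the groups did not overlap. Without caMNK replicate 2, 3 of the 10 were called, close to the 29.6% of all genes called in that fit. The 12 genes not tested had 0 to 29 counts over all libraries, and Pcdhb1 had none.

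The Pcdhg cluster was the most abundant of the 3, with a lower level in caMNK that passed in parts of it. It spans chromosome 18 from 37661793 to 37841873 and has 21 entries nested in the same way. Pcdhgc4 was not analysed here, and its exon lies in the Pcdhgc3 interval. The outermost entry, Pcdhga1, counts the whole cluster, and measured 564 and 582 CPM in pBABE and 460, 414 and 496 CPM in caMNK. The groups did not overlap, and the log2 fold change of −0.33 (SE 0.0972) was not past the threshold in edgeR (adjusted p = 0.0753), but was in edgeR without a filter on low counts (0.0121) and in DESeq2 (0.0489). All 21 entries had log2 fold changes of −0.34 to −0.17, with adjusted p-values of 0.0753 to 0.400. By edgeR 0 of the 21 passed, against 5 by DESeq2 and 0 by limma-voom. At an unadjusted edgeR p under 0.05 there were 20 of these nested entries, beside 4407 of all 17026 genes tested. Without caMNK replicate 2, 20 entries were called, and likewise 20 without caMNK replicate 3, where 29.6% and 10.2% of all genes were called.

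Since the entries are nested, the count of each minus the count of the next one inside gives the reads that touch it but not the next one, here called an interval and named after the entry that begins it. An interval spans 1 variable exon and the intron behind it, except that of Pcdhgc3, which also holds the Pcdhgc4 exon. A read spliced from a variable exon to the constant exons is left out. Such reads count in the last interval, Pcdhgc5, which also holds the constant exons that every gamma isoform uses. The antisense gene Gm37165, which lies within the intervals of Pcdhga6, Pcdhga7, Pcdhgb4 and Pcdhga8, had 3132 counts and these 4 intervals together 3074. If strand was not used in counting, such spliced reads occurred. How many there were in each library was not counted. With intervals in place of nested entries, edgeR tested 17 of them, 1 from Pcdha and 16 from Pcdhg, among 17009 genes of which 7.88% were called. In that fit 3 intervals fell, against 3.46% of all genes: Pcdhac2, Pcdhgc3 and Pcdhga10.

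**Figure D3:**
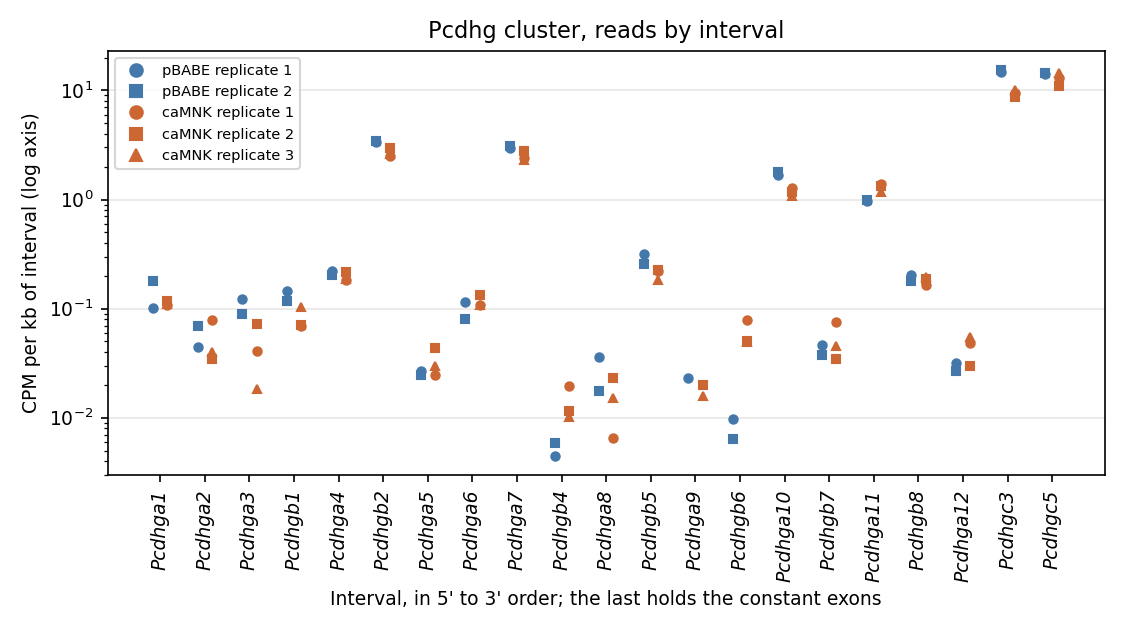
CPM per kb of interval (log axis) for the 21 Pcdhg intervals in their order along the cluster, 1 point per library, blue for pBABE and orange for caMNK. A library without a read in an interval has no point. Pcdhgb2, Pcdhga7, Pcdhga10, Pcdhga11, Pcdhgc3 and Pcdhgc5 stand above the rest, and pBABE lies above caMNK in Pcdhgc3.

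Reads were concentrated in few intervals. Of 93939 counts in the cluster, 55765 (59.4%) lay in Pcdhgc5 with the constant exons and 28588 in Pcdhgc3. Pcdhga7 held 2881, Pcdhgb2 2563, Pcdhga11 1332 and Pcdhga10 1201 counts. Each of the other 15 intervals held at most 288. Both lines thus had reads in 4 of the a- and b-type intervals well above the others.

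The Pcdhgc3 interval begins at the first exon of a c-type isoform and also holds the Pcdhgc4 exon. It measured 193 and 202 CPM in pBABE and 124, 115 and 132 CPM in caMNK. No caMNK library reached the pBABE level. The fall was 1.60-fold (log2 fold change −0.68, SE 0.0894, edgeR adjusted p = 0.00687). With 1 pBABE library left, the log2 fold change was −0.72 (without replicate 1) or −0.65 (without replicate 2). The antisense gene BC037039 (chromosome 18, 37805718 to 37807922, minus strand) overlaps the start of this interval by 1559 bp. BC037039 itself measured 140 and 144 CPM in pBABE and 85.3, 76.9 and 89.7 CPM in caMNK, also without overlap (log2 fold change −0.76, edgeR adjusted p = 0.00537). The BC037039 count equalled 72.5% and 71.0% of the interval's count in pBABE and 69.1%, 66.8% and 68.2% in caMNK. The reads that BC037039 and the interval have in common were not counted. Unless strand was used in counting, the 2 genes cannot be told apart there.

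The 4 a- and b-type intervals with many reads had log2 fold changes of unlike sign. The antisense gene Gm26672 (2905 counts) overlaps those of Pcdhga10 and Pcdhga11, and Gm37165 (3132 counts) overlaps that of Pcdhga7. Unless strand was used in counting, sense and antisense reads cannot be told apart in these intervals. Pcdhga10 measured 7.72 and 8.21 CPM in pBABE and 5.89, 5.41 and 4.92 CPM in caMNK, a fall of 1.48-fold (log2 fold change −0.56, SE 0.134, edgeR adjusted p = 0.0407). That call was lost without caMNK replicate 1 (0.105) or caMNK replicate 3 (0.0559), and with total-count scaling (0.0562). With 1 pBABE library left, the log2 fold change was −0.61 (without replicate 1) or −0.52 (without replicate 2). Pcdhga11, the next a-type interval downstream, had the opposite sign, at 5.85 and 5.95 against 8.40, 8.11 and 7.05 CPM (log2 fold change 0.41, adjusted p = 0.0966), and passed without caMNK replicate 2 (0.0432). In both intervals the groups did not overlap. Pcdhgb2 measured 15.2 and 15.7 against 11.5, 13.5 and 11.8 CPM (−0.33, adjusted p = 0.107). Pcdhga7 measured 16.8 and 17.5 against 13.6, 15.5 and 12.8 CPM (−0.29, adjusted p = 0.159). Both were lower in every caMNK library without passing with all 5 libraries, and both passed without caMNK replicate 2 (0.00577 and 0.00831).

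The innermost Pcdhgc5 interval with the constant exons measured 316 and 324 CPM in pBABE and 288, 248 and 320 CPM in caMNK. The groups overlapped (log2 fold change −0.17, edgeR adjusted p = 0.399). The Pcdhgc3 interval made up 34.5% ± 0.345 of the cluster's counts in pBABE (SD, n = 2) and 27.1% ± 0.684 in caMNK (SD, n = 3). The shares did not overlap, and an exact two-sided permutation test gave p = 0.2, the smallest p that 2 libraries against 3 allow. Outside the constant interval, Pcdhgc3 held a mean of 78.2% in pBABE and 72.0% in caMNK (exact two-sided permutation p = 0.2).

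**Figure D4:**
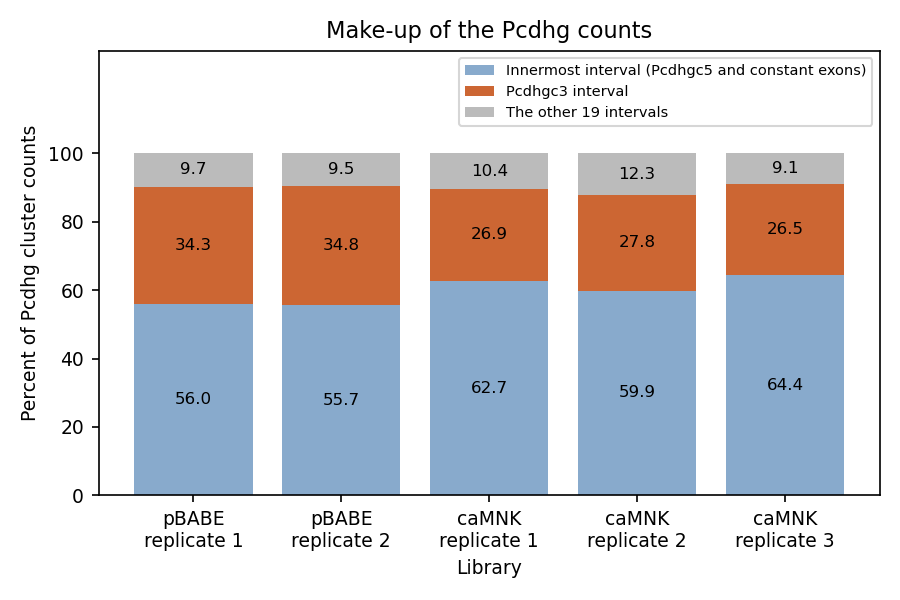
Percent of all Pcdhg cluster counts in the innermost interval, in the Pcdhgc3 interval and in the other 19 intervals, 1 stacked bar per library. The Pcdhgc3 interval, which antisense BC037039 overlaps, holds 34.3% and 34.8% in pBABE and 26.9%, 27.8% and 26.5% in caMNK.

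Genes that work with cadherins were read from 5 lists, to be set beside the 3.52% of all tested genes that fell and the 4.42% that rose. Among catenins and junction partners, 1 of 21 tested genes fell, near the share over all genes, at a list median of −0.12 on the log2 scale. It was Mllt4, which encodes afadin, the link from nectins to actin, at 178 and 189 CPM in pBABE and 135, 141 and 124 CPM in caMNK (log2 fold change −0.46, edgeR adjusted p = 0.0213). Its groups did not overlap. Alpha-catenin (Ctnna1, −0.21), the catenin-like Ctnnal1 (−0.30) and the p120 relative Pkp4 (−0.26) did not pass (edgeR adjusted p-values of 0.134, 0.0875 and 0.0926). Among sheddases and gamma-secretase, which cleave cadherins, 1 of 11 fell at a list median of −0.09. It was Adam9, from 203 and 201 to 146, 154 and 141 CPM (−0.46, edgeR adjusted p = 0.0158). Adam10, the known sheddase of E- and N-cadherin and gamma protocadherins, measured 305 and 299 against 228, 267 and 206 CPM without passing in edgeR (−0.37, adjusted p = 0.0834; 0.0428 by DESeq2). Adam17 (−0.22, adjusted p = 0.156 in edgeR) and the gamma-secretase subunit Ncstn (−0.18, 0.213) did not pass.

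Among regulators of classical cadherin genes, 1 of 10 rose at a list median of 0.19. Snai1, the Snail repressor of Cdh1, measured 5.61 and 5.30 CPM in pBABE and 11.3, 12.8 and 11.2 CPM in caMNK (log2 fold change 1.11, edgeR adjusted p = 0.00504). Every caMNK library was higher. Cdh1, its known target, was at 3 to 7 counts per library in both lines. Twist2 (0.53, edgeR adjusted p = 0.0842; 0.0356 by DESeq2), Zeb1 (0.28, 0.202) and the E-protein gene Tcf4 (0.23, 0.179) did not pass in edgeR.

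In the wider cadherin superfamily of Fat, Dachsous, Celsr, calsyntenin and desmosomal genes with the receptor kinase gene Ret, 7 of 27 were tested, 3 fell (against 3.52% of all genes) and all 7 log2 fold changes were negative (median −0.44). Celsr2, a planar polarity cadherin, measured 1.94 and 2.45 CPM in pBABE and 1.01, 1.07 and 0.919 CPM in caMNK (log2 fold change −1.12, edgeR adjusted p = 0.0189). The giant cadherin Fat1 measured 314 and 371 against 257, 232 and 211 CPM (−0.55, adjusted p = 0.0236). The calsyntenin gene Clstn1 measured 204 and 208 against 149, 166 and 160 CPM (−0.38, adjusted p = 0.0333). In all 3 the groups did not overlap. Celsr1 had a log2 fold change of −0.44 and did not pass in edgeR (adjusted p = 0.0643).

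Of 23 tested regulators and partners of protocadherins, 0 passed in edgeR, against 1 called by DESeq2 and 0 by limma-voom. The list includes the cohesin and CTCF machinery that joins promoters to enhancers in the clusters. At an unadjusted edgeR p under 0.05 there were 5 of the 23, beside 4407 of all 17026 genes tested. The list median was −0.18. Nipbl, the cohesin loader, measured 115 and 123 CPM in pBABE and 81.3, 109 and 68.7 CPM in caMNK (log2 fold change −0.46, edgeR adjusted p = 0.126; 0.0462 by DESeq2). The focal adhesion kinases Ptk2 (−0.29) and Ptk2b (−0.48), whose products gamma protocadherins inhibit, and the actin regulator gene Cyfip2 (0.79) had edgeR adjusted p-values of 0.136, 0.0943 and 0.0774.

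The calls of these lists also changed with the libraries used. Leaving out either pBABE library keeps only 1 of that group, so only effect sizes are given for those fits. The log2 fold changes of Mllt4, Adam9, Snai1, Celsr2, Fat1 and Clstn1 kept their direction in both. Snai1 was at 1.14 without pBABE replicate 1 and 1.07 without pBABE replicate 2, and Fat1 at −0.68 and −0.43. Without caMNK replicate 1, where 255 of 16861 genes were called, only Snai1 of these genes passed. Without caMNK replicate 2, where 29.6% of all genes were called, 16 of the 23 protocadherin regulators and partners, 6 of the 21 junction partners and 5 of the 7 superfamily genes were called. In the same comparison 6 of 10 mitochondrial mRNAs rose (median 0.67), a class that varies with RNA quality and preparation, and its part in these results was not tested. Collagen and other fibroblast markers summed to 859 to 912 CPM in pBABE and 616 to 872 CPM in caMNK over 7 genes. Within that list Col1a1 fell, from 164 and 152 to 83.6, 113 and 82.6 CPM (log2 fold change −0.76, edgeR adjusted p = 0.0164), and Fap, named after its values were seen, rose from 0.720 and 0.961 to 1.81, 2.80 and 1.95 CPM. Their part in the results was not tested. The sum over 7 leukocyte markers was 2.06 to 2.39 CPM and 2.61 to 4.51 CPM, and over 6 neuronal and glial markers 29.8 to 35.9 and 27.9 to 39.3 CPM.

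**Figure D5:**
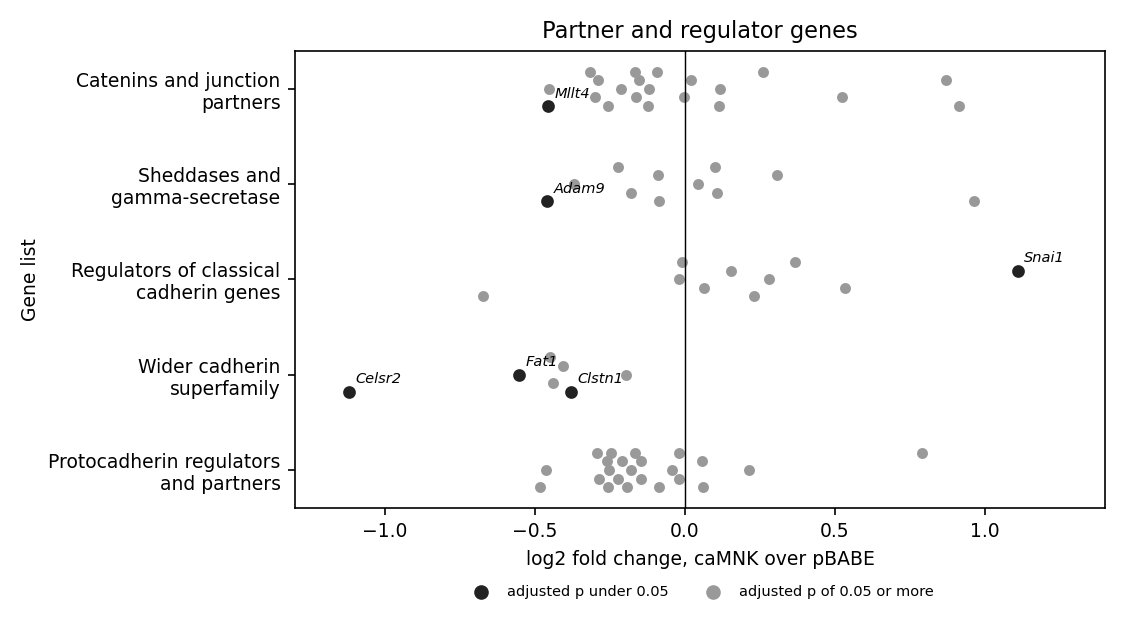
Log2 fold change of caMNK over pBABE for each tested gene of 5 partner and regulator lists, 1 point per gene. Dark, named points passed an adjusted p of 0.05 in edgeR (Mllt4, Adam9, Celsr2, Fat1 and Clstn1 below 0, Snai1 above), and all 7 tested genes of the wider superfamily lie below 0.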

How the data were processed

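Total RNA was prepared with a column kit and made into stranded total RNA libraries, per the labels' protocols. The deposited values are raw read counts per gene, 1 table for each of 2 pBABE and 3 caMNK libraries. Per the submitters' processing notes, reads went through featureCounts 1.5.3 on build mm10, and STAR 2.5.3, Trimmomatic 0.32, SAMtools 0.1.19, FastQC 0.11.2 and DESeq2 are also named. The gene annotation and the settings of the counter, its use of strand included, were not given in the sources used here. Deposited lengths equalled the genomic span of the GENCODE M21 entry for 37334 of 44119 matched genes and for 80 of the 91 members, so counts cover introns. Reads in overlapping genes were counted for each of them. A gene is flagged as sharing reads where an overlapping gene has 10% or more of its counts. The shared reads themselves were not counted, and between opposite strands sharing depends on the use of strand.

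The counts were tested with edgeR 4.0.16 in R 4.3.3 (filterByExpr, TMM, quasi-likelihood F test with robust estimation, group as the only term, Benjamini-Hochberg over all genes tested, threshold 0.05), and the procedure was tested on simulated counts with 200 changed genes. CPM use TMM-scaled totals, and SE is the log2 fold change divided by the root of F. Alternatives were DESeq2 1.42.0, limma-voom 3.58.1, 2 other scalings, no filter and a stricter filter. The stricter filter kept genes that reached, in at least 2 libraries, the CPM that 50 counts give in the smallest library. Further alternatives were a replicate block, each library left out, genes flagged as sharing reads left out and nested entries replaced by intervals. The interval alternatives were chosen after seeing the data. Members, gene lists and markers were chosen with earlier results of these data known. Named are all tested cadherins and non-clustered protocadherins, the outermost, innermost and called cluster entries, the 4 genes of lowest p per list, Mknk1, and the 3 most abundant markers per marker list, of which most are given as sums. The intervals Pcdhga7, Pcdhga11 and Pcdhgb2, and Pcdhb22, were chosen after their values were seen. No 2 libraries were alike within sampling noise (lowest chi-square per degree of freedom 6.35). Genes on mouse chromosome 18 are given without sequence.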

Additional observations from a re-analysis of the deposited data

How the results depend on the processing

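Over all genes, 2921 were called without a filter on low counts and 23 to 4942 with 1 library left out. The cadherin calls (2) became 1 with the stricter filter and 0 to 3 with 1 library left out, and the non-clustered protocadherin call (1) became 0 to 4. The 13 clustered entries called, all nested Pcdha entries, became 34 without a filter, where 2921 of 27978 genes were called. These were 13 Pcdha, 20 Pcdhg and 1 Pcdhb entries. Nested entries count the same reads again, so they are not 34 results. As intervals 3 were called. With 1 caMNK library left out, 0 to 36 entries were called, with 36 without caMNK replicate 2, where 29.6% of all genes were called. The 3 called intervals became 5 without a filter and 0 to 8 with 1 library left out. Apart from the replicate block these counts stayed within 1.5 times in the other alternatives. The cause of these changes was not tested. Replicate numbers did not pair the libraries: deviations of same-numbered libraries correlated at −0.0549 and −0.0252. With the replicate block, which leaves 1 residual degree of freedom, 2708 genes, 2 cadherins, 1 non-clustered protocadherin, 33 clustered entries and 4 intervals were called. Log2 fold changes that changed sign with 1 library left out ran from −0.230 to 0.0887 for Cdh26 and −0.329 to 0.0763 for Cdh6, both positive without pBABE replicate 2, from −0.308 (called, without caMNK replicate 2) to 0.0192 (without caMNK replicate 3) for Pcdh18, and from −0.146 (without caMNK replicate 2) to 0.289 for Pcdh20. Pcdh18 also changed sign with the replicate block (0.00235). Among intervals the ranges were −0.666 to 0.1495 for Pcdhga1 and −0.515 to 0.1101 for Pcdhga2, both positive without pBABE replicate 2 (Pcdhga2 also without caMNK replicate 2, 0.0336), and −0.161 to 0.0114 for Pcdhgb8. None of the values of changed sign was past the threshold. Of the other single-gene fold changes under an alternative, 699 kept their direction and side of the threshold, 52 lost the call and 48 gained it. Depth limits the 18 untested cadherins and protocadherins outside the clusters, at 0 to 39 counts over 5 libraries.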
